A study of Homo sapiens with 4 samples.

Results

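The BCL2 family of apoptosis regulators was followed through 10 genes, BCL2, BCL2L1, BCL2L2, BCL2L11, BAX, BAK1, BBC3, PMAIP1, BID and BIK, of 60675 genes in the tables. They were found by their symbols, and each matched 1 Ensembl identifier. RNA was sequenced from MM134 cells, an estrogen receptor positive line of invasive lobular breast carcinoma. The HER2 L755S line carries a substitution in the kinase domain of HER2, a receptor tyrosine kinase that ERBB2 encodes, and the HER2 WT line carries the wild-type receptor. Both lines had been kept for 7 days without estrogen, in medium free of phenol red with 5% charcoal-stripped serum, so the comparison is between receptor forms and holds no estrogen-fed cells. There were 2 libraries per line, HER2 L755S 1 and 2 and HER2 WT 1 and 2. How the receptor was introduced, whether a line is a clone, and whether its libraries came from separate cultures were not given in the sources used here. All p-values therefore rest on the spread between libraries alone, and that spread may be technical.

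The family decides whether the outer mitochondrial membrane is opened during apoptosis. The effectors BAX and BAK1 form the pores that release cytochrome c, and pro-survival members such as BCL2, BCL2L1 (BCL-xL) and BCL2L2 (BCL-w) hold them in check. BH3-only members sense stress and either block the pro-survival proteins or activate the effectors directly. In breast epithelium BCL2 is known as an estrogen-induced gene, and BCL2L11 (BIM) as a transcript that FOXO factors induce when growth factor signalling is withdrawn.

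Summed expected counts ran from 27423247 to 31088422 per library. All 10 luminal epithelial markers examined were above 1 CPM (reads relative to library size, with TMM scaling between libraries) in each library. Leukocyte markers summed to 1.03 and 0.0779 CPM in HER2 L755S and to 1.08 and 0.482 CPM in HER2 WT libraries, with CD3E and MS4A1 at 0. Those of fibroblasts and endothelium summed to 115 and 62.2 CPM in HER2 L755S and to 101 and 54.9 CPM in HER2 WT libraries, nearly all from COL1A1, with PECAM1 and CDH5 at 0. Libraries with the same number resembled each other in RNA make-up. The mitochondrial share of counts was 4.03% and 13.5% in the HER2 L755S libraries 1 and 2, and 4.395% and 8.83% in the HER2 WT libraries 1 and 2. Differences are therefore also given on the log2 scale within a number, as pair 1 for the libraries numbered 1 and pair 2 for those numbered 2.

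BCL2 was the member with the largest difference between the lines, lower in both HER2 L755S libraries, while BAK1, PMAIP1 and BID were higher in both and BCL2L11 was lower in both. BCL2L1, BCL2L2, BAX, BBC3 and BIK had overlapping libraries. The 5 members without overlap kept their direction under each of 15 alternatives, but some of these could hardly reverse it. A difference without overlap cannot turn by dropping 1 library alone, and the stricter threshold reuses the same fit. None of the 10 passed the test across all genes. At an adjusted p under 0.05, edgeR's quasi-likelihood test called 0 of 10 members, where it called 1.69% of all 16538 tested genes, 0.738% as higher and 0.949% as lower in HER2 L755S cells. DESeq2 and limma-voom also called 0 of 10, where they called 3.54% and 1.68% of tested genes. An unadjusted p under 0.05 was reached by 1 member, BCL2, where 10.5% of tested genes reached it and 6.46% did so with lower values in HER2 L755S cells. The libraries of the lines did not overlap for 5 of 10 members, 3 higher and 2 lower, where this held for 36.2% of tested genes, 16.9% higher and 19.3% lower. The median log2 fold change of the members was 0.16 (0.17 in pair 1 and 0.15 in pair 2), beside 0.00 for all tested genes.

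The transcript levels differed widely between members. On the scale of TPM (transcript abundance corrected for length, relative to all transcripts of a library), BAX and BCL2L1 were the most abundant, with means over the 4 libraries of 72.4 and 59.3 TPM, and their ranges overlapped. BAK1 followed at 30.8 TPM. BIK, BBC3, BID and BCL2L2 had means of 21.7, 19.7, 19.1 and 16.6 TPM, and BCL2 and BCL2L11 of 12.7 and 12.5 TPM. PMAIP1 was the least abundant in every library, at a mean of 2.90 TPM. Neighbours in this order overlapped in range except BCL2L1 over BAK1 and BCL2L11 over PMAIP1. The first of these gaps was narrow, with a lowest BCL2L1 value of 40.25 TPM and a highest BAK1 value of 40.0 TPM.

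**Figure D1:**
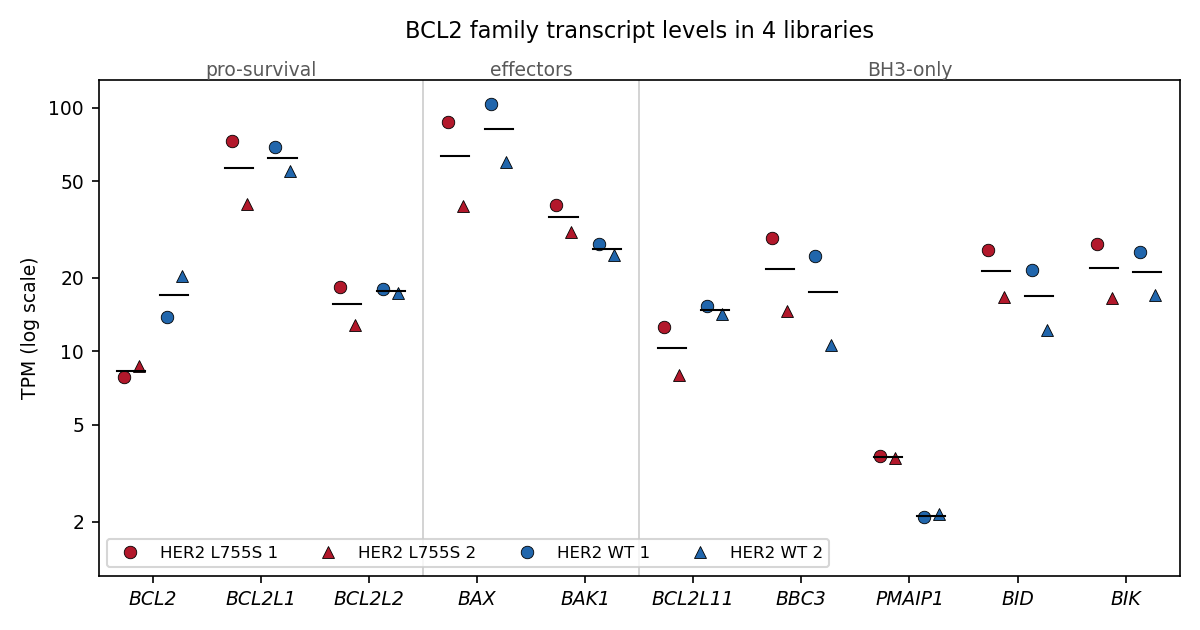
Level of each family member in TPM on a log axis, with HER2 L755S libraries in red left of HER2 WT libraries in blue, circles for number 1, triangles for number 2 and bars for the mean of 2 libraries. BCL2 stands at 7.84 and 8.72 TPM in HER2 L755S against 13.9 and 20.3 TPM in HER2 WT libraries, and PMAIP1 at 3.73 and 3.66 TPM against 2.08 and 2.14 TPM.

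Among the pro-survival members, BCL2, which lends the family its name, had 1211 and 1447 expected counts in HER2 L755S 1 and 2 and 2275 and 3212 in HER2 WT 1 and 2. Scaled between libraries, these were 41.4 and 56.4 CPM in HER2 L755S and 70.3 and 111 CPM in HER2 WT libraries. Both HER2 L755S values lay below both HER2 WT values. HER2 L755S cells averaged 48.9 ± 10.6 CPM and HER2 WT cells 90.4 ± 28.5 CPM (SD, n = 2 each), a log2 fold change of -0.89 (SE 0.35), or 0.541 times the HER2 WT level (edgeR, Benjamini-Hochberg adjusted p = 0.35, unadjusted p = 0.028). The difference was -0.76 in pair 1 and -0.97 in pair 2. Within a line, the number 2 library was the higher, by 0.44 on the log2 scale in HER2 L755S and 0.65 in HER2 WT cells.

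BCL2 (ENSG00000171791) lies on the minus strand of GRCh38 chromosome 18, at 63123346 to 63320128 in GENCODE 29. The surrounding genes were near the level of all genes. The 12 other tested genes of at least 5 CPM within 5 Mb on either side had a median log2 fold change of 0.08, beside 0.03 for all 11452 placed genes of that level, and 5 of the 12 were lower in HER2 L755S cells. PMAIP1 lies on the same chromosome, at 59899948 to 59904306, and had the opposite direction.

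BCL2L1, which encodes BCL-xL and, by alternative splicing, the short pro-apoptotic BCL-xS, was the dominant pro-survival transcript among the members. It stood at 119 and 88.5 CPM in HER2 L755S and 104 and 87.8 CPM in HER2 WT libraries, and the lines overlapped. Its log2 fold change was 0.12 (SE 0.32). BCL2L2 had 46.4 and 39.8 CPM in HER2 L755S and 42.7 and 46.0 CPM in HER2 WT libraries, a log2 fold change of -0.04 (SE 0.32, edgeR, Benjamini-Hochberg adjusted p = 1 for both genes). The direction of BCL2L1, BCL2L2, BAX, BBC3 and BIK depended on which library was left out, and that of BCL2L1 turned to -0.19 on the TPM scale, on which the median of all tested genes was -0.17. BCL2L2 shares exons with the read-through gene BCL2L2-PABPN1, which stood at 4.45 and 11.4 CPM in HER2 L755S and 6.67 and 5.79 CPM in HER2 WT libraries, so its counts are uncertain.

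Within each number, BCL2 was a smaller part of the pro-survival group in HER2 L755S cells. It made up 7.91% and 14.1% of the summed TPM of BCL2, BCL2L1 and BCL2L2 in HER2 L755S 1 and 2, and 13.8% and 21.9% in HER2 WT 1 and 2. Since HER2 L755S 2 lay above HER2 WT 1, the lines overlapped in this share. BCL2L1 made up 73.5% and 65.2% in HER2 L755S and 68.4% and 59.3% in HER2 WT libraries. The sum itself was 99.1 and 61.7 TPM in HER2 L755S and 101 and 92.6 TPM in HER2 WT libraries. MCL1, a short-lived pro-survival protein outside the 10 members, stood at 51.0 and 46.1 TPM in HER2 L755S and 48.3 and 52.2 TPM in HER2 WT libraries, well above BCL2 in each library. With 2 libraries against 2 an exact two-sided permutation test cannot go below p = 0.33, so sums and shares are given without a test.

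Of the effectors, BAK1, which resides in the outer mitochondrial membrane, had 1747 and 1515 expected counts in HER2 L755S and 1303 and 1091 in HER2 WT libraries. These were 59.7 and 59.0 CPM in HER2 L755S against 40.3 and 37.6 CPM in HER2 WT libraries, and the 2 libraries of each line lay close together. HER2 L755S cells averaged 59.4 ± 0.509 CPM and HER2 WT cells 38.9 ± 1.90 CPM (SD, n = 2 each), a log2 fold change of 0.61 (SE 0.31, pairs 0.57 and 0.65, edgeR, Benjamini-Hochberg adjusted p = 0.59). BAK1 (ENSG00000030110) lies on chromosome 6, at 33572547 to 33580293, where 144 neighbouring genes had a median of 0.04.

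BAX, which moves from the cytosol to mitochondria when activated, followed the library number and not the line. It stood at 39.5 and 24.0 CPM in HER2 L755S and 42.1 and 25.5 CPM in HER2 WT libraries. Number 2 lay below number 1 by 0.71 in HER2 L755S and by 0.72 in HER2 WT cells on the log2 scale, while the log2 fold change between the lines was -0.09 (SE 0.39) and -0.09 in both pairs. Number 2 libraries also had the higher mitochondrial shares given above, and the part of this in the level of BAX was not tested. The ratio of BAK1 to BAX was taken in TPM, where BAX was lower in HER2 L755S within each number by more than in CPM. BAX stood at 87.0 and 39.5 TPM in HER2 L755S and 104 and 59.6 TPM in HER2 WT libraries, and the lines overlapped. On this scale its log2 fold change was -0.42 (limma, pseudocount 0.1, adjusted p = 0.97), beside a median of -0.17 for all tested genes. The ratio was 0.460 and 0.784 in HER2 L755S and 0.266 and 0.416 in HER2 WT libraries. Both HER2 L755S values were the higher, and within each number the ratio was higher by 0.79 and 0.92 on the log2 scale.

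**Figure D2:**
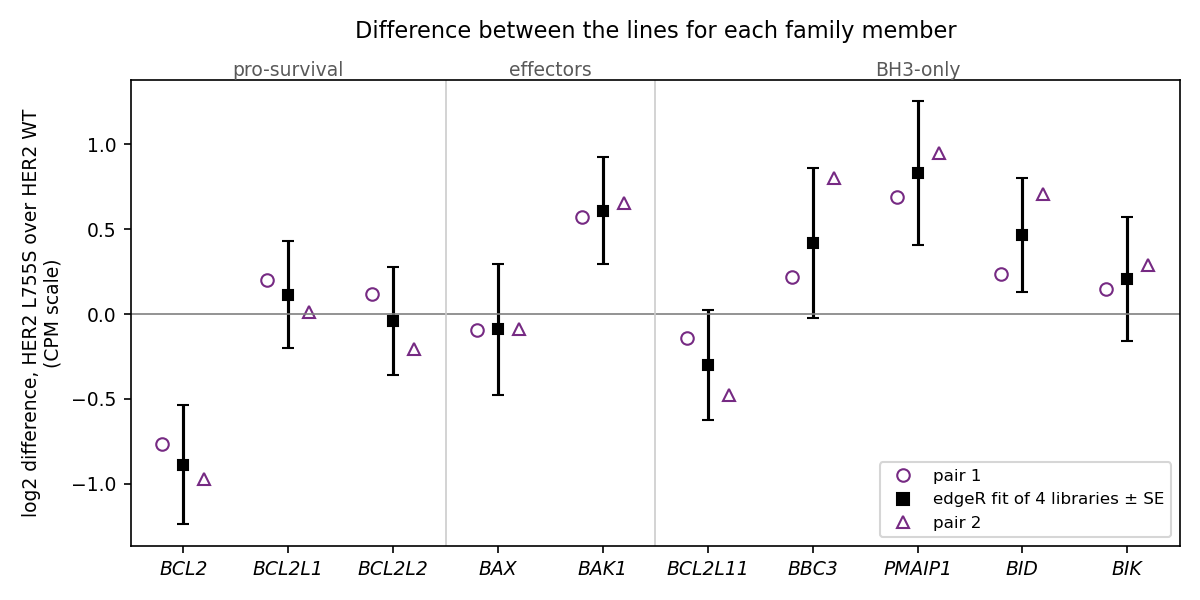
Log2 difference between HER2 L755S and HER2 WT for each member on the CPM scale, with pair 1 as circles, pair 2 as triangles and the edgeR estimate from 4 libraries as squares with its standard error. BCL2 is at -0.89 and PMAIP1 at 0.83, and BAK1 has the closest pair of values above 0, at 0.57 and 0.65.

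The BH3-only members were mixed. PMAIP1 (NOXA), which binds mainly MCL1, had 124 and 137 expected counts in HER2 L755S and 85 and 80 in HER2 WT libraries. On the CPM scale these were 4.24 and 5.34 in HER2 L755S against 2.63 and 2.75 in HER2 WT libraries. Both HER2 L755S libraries were above both HER2 WT libraries. The log2 fold change was 0.83 (SE 0.42, pairs 0.69 and 0.95, edgeR, Benjamini-Hochberg adjusted p = 0.58), or 1.78 times the HER2 WT level, the largest positive value among the members and the one measured on the fewest counts.

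BID, which links death receptors to mitochondria once caspase-8 has cut it, stood at 22.3 and 24.7 CPM in HER2 L755S and 18.9 and 15.1 CPM in HER2 WT libraries. The lines did not overlap, and the log2 fold change was 0.46 (SE 0.34, pairs 0.24 and 0.70, edgeR, adjusted p = 0.84). In TPM the lines did overlap, with 26.1 and 16.7 in HER2 L755S and 21.5 and 12.2 in HER2 WT libraries. BBC3 (PUMA), a p53 target that engages all pro-survival proteins, had 26.4 and 16.7 CPM in HER2 L755S and 22.6 and 9.57 CPM in HER2 WT libraries. Its log2 fold change was 0.42 (SE 0.44). Pair 1 gave 0.22 and pair 2 gave 0.80. It depended on single libraries, at 1.17 without HER2 WT 1 and -0.06 without HER2 WT 2. Like BAX, BBC3 was lower in number 2 libraries, by 0.66 in HER2 L755S and 1.24 in HER2 WT cells. BIK, a BH3-only protein of the endoplasmic reticulum, stood at 15.7 and 12.0 CPM in HER2 L755S and 14.2 and 9.81 CPM in HER2 WT libraries, a log2 fold change of 0.21 (SE 0.37).

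BCL2L11 (BIM) was the BH3-only member with lower values in HER2 L755S cells. It stood at 47.7 and 37.6 CPM in HER2 L755S against 52.6 and 52.3 CPM in HER2 WT libraries. The log2 fold change was -0.30 (SE 0.32, pairs -0.14 and -0.48, edgeR, Benjamini-Hochberg adjusted p = 0.95). Its share in the summed TPM of the 5 BH3-only members was 12.7% and 13.4% in HER2 L755S and 17.2% and 25.3% in HER2 WT libraries, with no overlap. On the opposite strand, the long non-coding RNA gene MIR4435-2HG overlaps BCL2L11 in GENCODE 29. Its level was 51.7 and 44.3 CPM in HER2 L755S and 15.3 and 19.5 CPM in HER2 WT libraries (log2 fold change 1.46, SE 0.34, edgeR, Benjamini-Hochberg adjusted p = 0.059). The strand setting of the counting was not given in the sources used here. Reads of these genes may be mixed where they overlap.

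GENCODE 29 places BCL2L11 (ENSG00000153094) at 111119378 to 111168447 on the plus strand of chromosome 2. The stretch of 250 bases before the start that RefSeq gives for BCL2L11 lies inside these bounds, downstream of the first GENCODE start. It is shown because it holds a match to the motif that FOXO factors bind and touches no annotated exon in GENCODE 29. It is read from RefSeq on GRCh38.p14, plus strand, chr2:111120664-111120913. Capitals mark GTAAACA, the FOXO motif, whose first base lies 223 bases before the RefSeq start, and GGGCGG, the GC box, which occurs 3 times.
BCL2L11: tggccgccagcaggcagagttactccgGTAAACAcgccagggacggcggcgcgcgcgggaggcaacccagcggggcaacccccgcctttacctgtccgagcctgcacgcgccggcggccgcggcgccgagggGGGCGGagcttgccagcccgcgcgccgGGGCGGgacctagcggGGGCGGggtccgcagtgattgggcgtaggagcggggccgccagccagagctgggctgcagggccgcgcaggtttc
Searched on both strands, GTAAACA was present in 2.98% of 35116 promoter stretches of the same length and GGGCGG in 42.6%. Among the members with an entry (BIK and BCL2L2 have none), GTAAACA was in this window of BCL2L11 alone. The E-box CACGTG, present in 6.34% of stretches, occurred 4 times before the BAX start, and also before that of BBC3 and some of those of BID. AGGTCA, the core of an estrogen response element, was present in 12.1% of all stretches and before none of the starts of these members, BCL2 included. Such matches describe letters in a window and not bound sites. The FOXO genes, given here for the motif and chosen after their values were seen, were not called. FOXO3 had a log2 fold change of 0.35 (edgeR, adjusted p = 0.92), FOXO4 of -0.37 (0.91) and FOXO1 of -0.69 (0.83).

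The sum of the 5 BH3-only members was 99.2 and 59.5 TPM in HER2 L755S and 88.9 and 56.3 TPM in HER2 WT libraries, so the lines overlapped. Divided by the pro-survival sum of the same library, it gave a ratio of 1.00 and 0.964 in HER2 L755S and 0.881 and 0.608 in HER2 WT libraries. Both HER2 L755S ratios were the higher for these 5 members. With MCL1 added to the pro-survival sum the ratios were 0.661 and 0.552 in HER2 L755S and 0.596 and 0.389 in HER2 WT libraries, which overlap. Effector to BH3-only ratios were 1.28 and 1.19 in HER2 L755S and 1.48 and 1.498 in HER2 WT libraries. All these ratios leave out other BH3-only genes, such as BAD and BMF. BAD stood at 85.4 and 42.8 TPM in HER2 L755S and 80.4 and 29.4 TPM in HER2 WT libraries. It lay above each of the 5 members in every library. BMF stood at 17.0 and 10.1 TPM in HER2 L755S and 21.2 and 27.6 TPM in HER2 WT libraries. With BAD and BMF added to the BH3-only sum, the ratio to the pro-survival sum is lower in HER2 L755S 2 than in HER2 WT 1. The lines then overlap, so their separation in this ratio holds for the 5 members alone. Messenger levels do not measure the proteins, whose binding decides the outcome, and in bulk RNA fewer cells expressing a gene and less RNA per cell cannot be told apart.

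**Figure D3:**
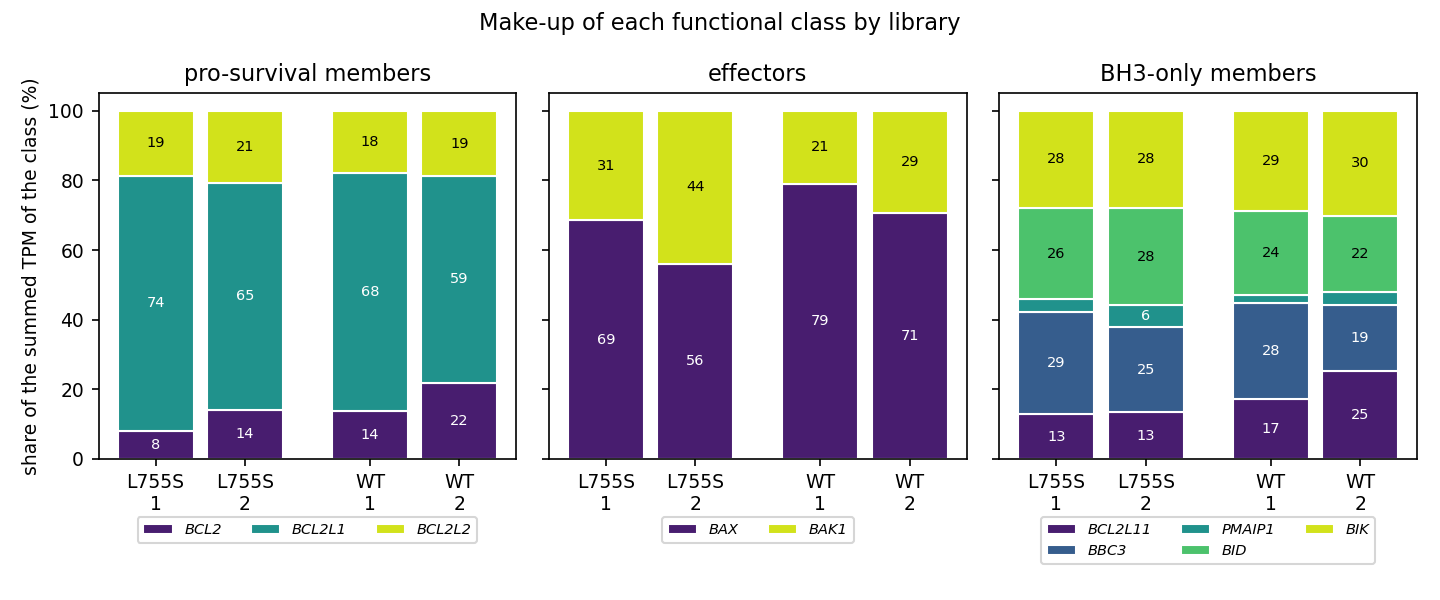
Share of each member in the summed TPM of its functional class, in percent, for each library, with HER2 L755S left of HER2 WT. The share of BAK1 among the effectors is 31.5% and 44.0% in HER2 L755S and 21.0% and 29.4% in HER2 WT libraries, and that of BCL2L11 among the BH3-only members is lower in both HER2 L755S libraries.

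The tables also give the mean transcript length of a gene, weighted by the estimated abundance of its transcripts, which moves when the mix of transcripts does. For PMAIP1 it was 1683 and 1691 bases in HER2 L755S and 1885 and 1854 bases in HER2 WT libraries. It was thus shorter by 10.7% in pair 1 and 8.79% in pair 2, among 3 annotated transcripts of 804 to 1948 bases. These lengths rest on only 80 to 137 expected counts per library. For BAX, with 13 transcripts of 300 to 1358 bases, it was 804 and 836 bases in HER2 L755S and 754 and 764 bases in HER2 WT libraries. BCL2L1 had 2322 and 2437 bases in HER2 L755S and 2204 and 2250 bases in HER2 WT libraries, and BCL2L11 5072 and 4969 bases against 4769 and 4874 bases. Without overlap between the lines, 3 members were longer and 2 shorter (PMAIP1, and BAK1 by 0.164% and 0.289% in the pairs). Of 13376 tested genes whose mean length varied, 2245 (16.8%) were longer and 1869 shorter in that sense. BID had 1320 and 1712 bases in HER2 L755S and 1382 and 1794 bases in HER2 WT libraries, a difference of 29.8% between the numbers in each line. Which transcripts make up these means was not analysed here.

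**Figure D4:**
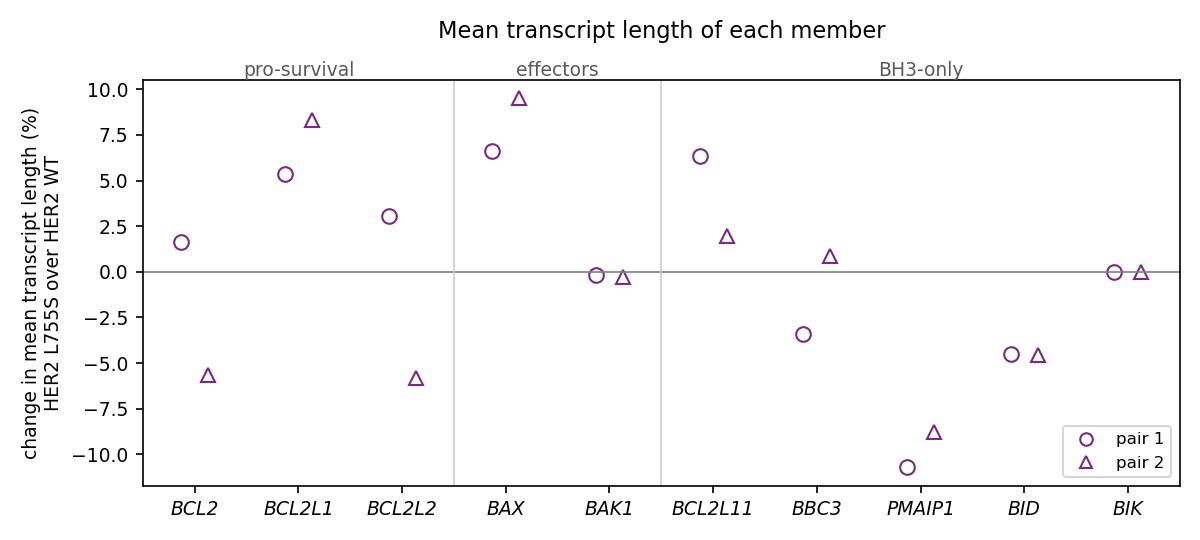
Change in the mean transcript length of each member, in percent, HER2 L755S over HER2 WT, in pair 1 (circles) and pair 2 (triangles). PMAIP1, on 80 to 137 expected counts per library, is shorter by 10.7% and 8.79%. BAX is longer by 6.64% and 9.50%, and BIK, with 1 transcript, is at 0.

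Compared by the root mean square difference of centred log2 CPM over the 4 libraries, the closest members were BCL2L1 and BIK, at 0.12, and BAK1 and BID, at 0.12. For BAK1, PMAIP1 and BID, 152, 168 and 245 of 11473 genes were nearer than the nearest member, and for the other members apart from BCL2 the number was 645 to 1452. For BCL2 the nearest member, BCL2L11, was at 0.46, and 2640 genes were nearer. The genes nearest to BCL2 were CAP2, which encodes an actin-binding protein, at 0.0351, MTBP, an MDM2-binding protein gene, at 0.0417, and PRKAB2, a subunit gene of AMP-activated kinase, at 0.0443. The members nearest to the others were BAK1 for PMAIP1 (0.172), BIK for BAX (0.204) and BBC3 (0.307), and BCL2L2 and BCL2L11 for each other (0.145). CAP2 stood at 16.5 and 23.2 CPM in HER2 L755S and 29.6 and 44.0 CPM in HER2 WT libraries. With 4 libraries such likeness is a description only.

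In 8 lists of genes around the family, no tested gene was called either. Of 113 listed genes 101 were tested, and edgeR called 0 at an adjusted p under 0.05 and 8 reached an unadjusted p under 0.05, where 10.5% of all tested genes did. DESeq2 called 1, the p53 target SESN1, and limma-voom 0. The libraries of the lines did not overlap for 42 of the 101 genes, or 41.6%, near the 36.2% of all tested genes. List medians ran from -0.20, for genes of protein turnover, to 0.28, for death receptors and adaptors.

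Of 13 other family genes, 9 were tested, with a median log2 fold change of 0.04, of which 7 were positive. BMF, a BH3-only gene whose product is held at the cytoskeleton, stood at 54.4 and 42.3 CPM in HER2 L755S and 62.9 and 79.8 CPM in HER2 WT libraries (log2 -0.56, edgeR, adjusted p = 0.70). BNIP3L, a mitophagy receptor gene, stood at 62.7 and 80.6 CPM in HER2 L755S and 49.3 and 53.03 CPM in HER2 WT libraries (log2 0.49, adjusted p = 0.78), and had -0.08 on the TPM scale. BCL2A1, BCL2L10, BCL2L14 and BCL2L15 were too low to test, at 0 to 8.64 counts.

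The 13 genes of the apoptosome and caspases had a median of -0.15, with 6 positive and 7 negative values. CASP9, the initiator caspase of the apoptosome, stood at 10.1 and 7.40 CPM in HER2 L755S and 13.2 and 12.1 CPM in HER2 WT libraries (log2 -0.53, edgeR, adjusted p = 0.80). The lines did not overlap for 9 of the 13 genes, or 69.2%, where 36.2% of all tested genes had no overlap. Of these 5 were higher and 4, CASP9 among them, lower in HER2 L755S cells. Of the inhibitors of apoptosis and their antagonists, 8 of 10 were tested, with a median of -0.01. BIRC5 (survivin), a mitotic gene as well, stood at 64.1 and 64.6 CPM in HER2 L755S and 132 and 64.3 CPM in HER2 WT libraries, so its difference came from pair 1 (-1.04) and not pair 2 (0.01). SEPTIN4, with 22 and 9 counts in HER2 L755S and 69 and 31 in HER2 WT libraries, had a log2 fold change of -1.52 (edgeR, adjusted p = 0.41). BIRC3 and BIRC7 were too low to test.

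Several genes of the list of death receptors and adaptors were close to undetected in both lines. FAS had 1 and 0 expected counts in HER2 L755S and 1 and 0 in HER2 WT libraries, and TNFRSF10A, TNFRSF10C, TNFRSF10D and TNFRSF1B had at most 11. Of 15 genes 10 were tested, with 7 positive and 3 negative values and a median of 0.28. Without overlap between the lines, 3 were higher and 2 lower, where 16.9% and 19.3% of all tested genes were. The higher ones, named after their values were seen, were TRADD (log2 0.72), CFLAR (0.35) and TNFRSF21 (0.34), with edgeR adjusted p of 0.74, 0.92 and 0.93. FADD, an adaptor of FAS, stood at 155 and 118 CPM in HER2 L755S and 244 and 189 CPM in HER2 WT libraries. Its log2 fold change was -0.67 (pairs -0.66 and -0.68, edgeR, adjusted p = 0.50). TNFSF10, the ligand TRAIL, stood at 5.91 and 6.11 CPM in HER2 L755S and 9.45 and 9.71 CPM in HER2 WT libraries (log2 -0.67, adjusted p = 0.64). FADD and TNFSF10 were lower in each HER2 L755S library, by nearly the same amount in each pair.

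Of the 24 p53 target genes 23 were tested, with 15 positive values and a median of 0.09. SESN1, which encodes a sensor of leucine and an inhibitor of mTORC1, stood at 34.3 and 54.6 CPM in HER2 L755S and 17.4 and 20.1 CPM in HER2 WT libraries. Its log2 fold change was 1.25 (SE 0.36, edgeR, adjusted p = 0.13; DESeq2, adjusted p = 0.029). PLK2, a polo-like kinase gene, stood at 175 and 165 CPM in HER2 L755S and 65.9 and 106 CPM in HER2 WT libraries (log2 0.99, edgeR, adjusted p = 0.22). Both other genes of the list with an unadjusted p under 0.05, named after their values were seen, were lower in each HER2 L755S library. PHLDA3, which encodes an inhibitor of AKT, stood at 16.03 and 13.05 CPM in HER2 L755S and 34.2 and 23.2 CPM in HER2 WT libraries (log2 -0.98, edgeR, adjusted p = 0.27). EDA2R, a receptor gene of the tumour necrosis factor family, had 11 and 12 counts in HER2 L755S and 50 and 32 in HER2 WT libraries (log2 -1.65, edgeR, adjusted p = 0.29). SPATA18 was too low to test.

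The 16 transcription factors that act on family genes had a median of -0.03. ESR1, the estrogen receptor gene, stood at 64.7 and 122 CPM in HER2 L755S and 176 and 282 CPM in HER2 WT libraries (log2 -1.29, SE 0.38, edgeR, adjusted p = 0.15). Like BCL2, it was lower in both HER2 L755S libraries and higher in number 2 than number 1 in each line. DDIT3, which encodes the stress factor CHOP, stood at 32.4 and 24.6 CPM in HER2 L755S and 15.8 and 8.23 CPM in HER2 WT libraries (log2 1.25, SE 0.40, edgeR, adjusted p = 0.19). ESR1 was called with no filter on low counts (edgeR, adjusted p = 0.01). With each library left out, its log2 fold change ran from -1.83 to -0.89, and that of DDIT3 from 0.86 to 1.79.

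The 10 outer membrane partners and fission or fusion factors had a median of 0.06 and the narrowest spread, from -0.37 to 0.28. MTCH2, the receptor of truncated BID at mitochondria, had a log2 fold change of 0.28 and the mitofusin gene MFN2 of -0.37 (edgeR, adjusted p = 0.95 and 0.88). Among 12 genes on the turnover of family proteins, CDC20, which activates the anaphase-promoting complex in mitosis, had 37.8 and 44.2 CPM in HER2 L755S and 124 and 60.3 CPM in HER2 WT libraries (log2 -1.17, pairs -1.71 and -0.45, edgeR, adjusted p = 0.21). MAPK8, which encodes the kinase JNK1, had a log2 value of -0.58 (adjusted p = 0.73). With each library left out, the log2 fold change of CDC20 ran from -1.58 to -0.56.

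**Figure D5:**
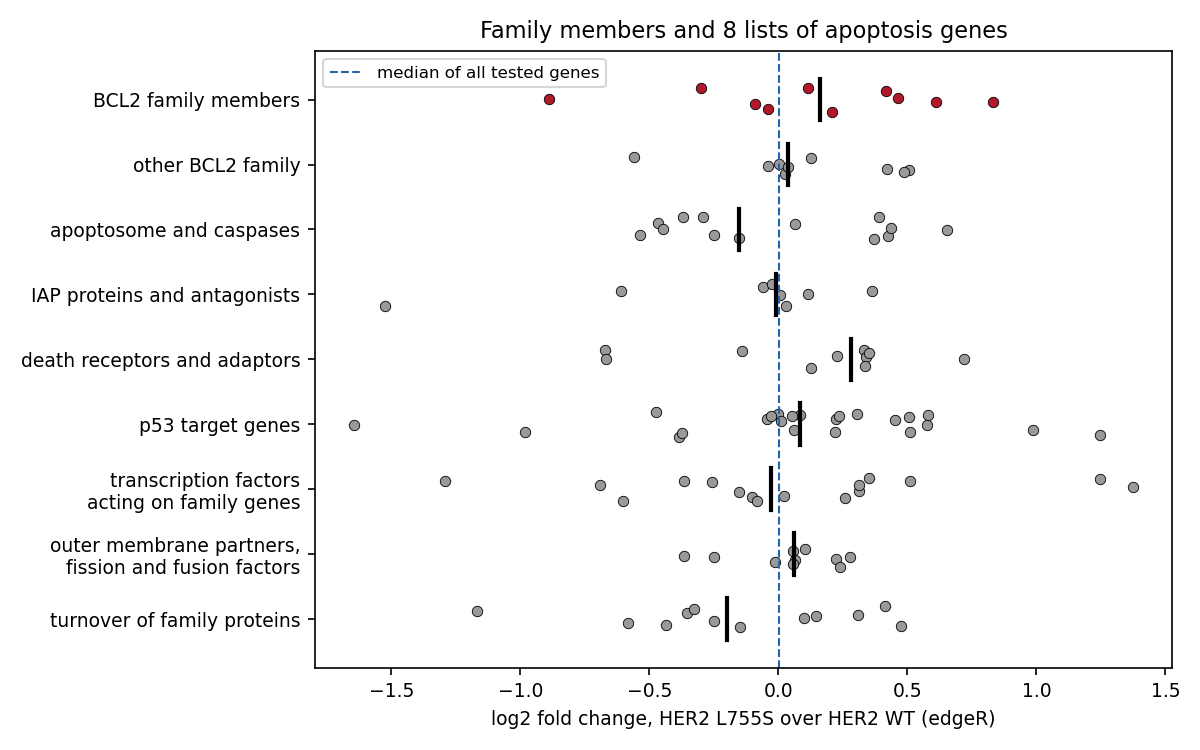
Log2 fold change, HER2 L755S over HER2 WT, of the 10 family members (red) and of the tested genes in 8 lists (grey), with thick bars for list medians and a dashed line for the median of all tested genes. The members run from -0.89 to 0.83 around a median of 0.16.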

How the data were processed

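Per the file headers, the deposited tables are RSEM output, with an expected count, TPM and mean transcript length per gene computed by the authors. The deposited FPKM values were not used. Per the submitters' processing notes, STAR, edgeR and the GRCh38 build were used, with versions not given in the sources used here. Both replicate 2 tables are named as merged, without a statement of what was joined. RSEM divides reads among genes that share sequence, and 9.53% to 11.5% of genes had counts that were not whole.

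Expected counts were rounded. filterByExpr left 16538 genes, all 10 members included. Libraries were scaled with TMM (factors 0.937 to 1.04) and compared in R 4.3.3 with edgeR 4.0.16 (glmQLFit and glmQLFTest, two-sided, no replicate term, Benjamini-Hochberg over all tested genes, threshold 0.05). A positive log2 fold change means a higher level in HER2 L755S. Pair differences are on log2 CPM with a prior count of 0.5. Alternatives used DESeq2 1.42.0, limma 3.58.1, other scalings and filters, TPM with pseudocounts of 0.1 and 1, the replicate number as a block, and each library left out. TPM rescaled without mitochondrial genes was added after the data were seen. The 2 libraries of a line differed far beyond sampling noise (chi-square per degree of freedom 177 in HER2 L755S and 120 in HER2 WT).

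Members and lists were chosen with earlier results of these data known. Named genes are the members, in each list the called genes or else the 2 with the lowest p, those too low to test, and the genes nearest to BCL2. Some genes that this rule names are not reported here. Simulated counts for this comparison were drawn for 16538 genes, with 49 or 50 tested genes changed at each fold. The libraries were drawn independently, with no effect shared by a replicate number. The test recovered 4.08% of 2-fold, 71.4% of 4-fold, 87.8% of 8-fold and 100% of 16-fold changes, and 15 of its 145 calls were false.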

Additional observations from a re-analysis of the deposited data

How the results depend on the processing

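Under 15 alternatives, 26 named genes gave 389 values, of which 361 kept their direction and their side of the threshold, 12 reversed and 16 passed the threshold. BCL2 ranged from -1.18 to -0.51, BCL2L11 from -0.55 to -0.14, BAK1 from 0.42 to 0.66, PMAIP1 from 0.59 to 0.99 and BID from 0.33 to 0.63. Reversals on the TPM scale were those of BCL2L1 (-0.19 and -0.18 with pseudocounts of 0.1 and 1) and BNIP3L (-0.078 and -0.076). With each library left out, BCL2L1 ran from -0.11 to 0.31, BCL2L2 from -0.16 to 0.062, BAX from -0.49 to 0.31, BBC3 from -0.064 to 1.17 and BIK from -0.023 to 0.49. SEPTIN4 had no value with at least 50 counts in 2 libraries.

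With the replicate number as a block, 725 genes were higher and 1018 lower (10.5% of those tested), and 2 members were called, BCL2 (log2 -0.87, edgeR adjusted p = 0.0054) and BAK1 (0.61, adjusted p = 0.044), with 8 genes of the lists, among them ESR1 (adjusted p = 0.00017), DDIT3 (0.00062), SESN1 (0.00066), PLK2, CDC20, FADD and PHLDA3. The labels do not say what a number stands for. Deviations of same-numbered libraries correlated at 0.425 over 16538 genes, and 2 pairs are too few to treat the numbers as pairing. The other alternatives called 0 members. Genes higher and lower numbered 276 and 309 with DESeq2, 328 and 431 with no filter, and 49 and 49 at an adjusted p under 0.01. Higher genes numbered 79 and 63 in limma on TPM with pseudocounts of 0.1 and 1. With each library left out, higher genes ran from 160 to 220, lower genes from 184 to 328 and list genes called from 0 to 3. List genes called were 1 with DESeq2 (SESN1) and 2 with no filter (SESN1 and ESR1). The cause of these shifts was not tested. In such fits the lone library is assumed to vary like the other line. PMAIP1 rested on 80 to 137 counts and SEPTIN4 on 9 to 69.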
